A study of Homo sapiens with 402 samples.

Results

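MCF10A, a non-tumorigenic line of human breast epithelial cells, was exposed to arsenic at 25 µM for 48 h, and its RNA was compared with that of wells given water on the same plate. The comparison holds 4 arsenic libraries and 15 water controls of plate 3153-AT that carry the arsenic libraries' plate barcode, out of 93 libraries with that barcode and 402 in the series. Every group used here is wild-type MCF10A of passage 105, seeded at 500 cells per well of a 384-well plate 24 h before dosing. The other groups are arsenic at 0.025, 0.25 and 2.5 µM, with 4 libraries each, and cadmium at 25 µM, with 2 libraries (1 more carries another plate's barcode and was not analysed here). The remaining libraries of the barcode hold copper, lead and mercury at the same 4 doses and cadmium at 0.025, 0.25 and 2.5 µM. They enter the filter, the scaling and the estimate of the spread, and are not described here. The labels name the agents as arsenic and cadmium without their compounds and give 4 biological replicates per dose. Nothing else in them shows separate cultures, so p-values measure the spread between wells within the groups of the barcode. The series asks how chemicals to which people are unequally exposed change gene expression in breast cells, and arsenic at 25 µM is the highest of its 4 doses.

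Arsenic in its trivalent form binds the thiol groups of proteins and glutathione and makes cells produce reactive oxygen. Cells answer through sensors that act on transcription. KEAP1 releases NRF2, which binds antioxidant response elements of genes for glutathione, thioredoxin and iron handling. HSF1 drives chaperone genes from heat shock elements, MTF1 drives metallothioneins from metal response elements, and kinases that phosphorylate eIF2alpha raise ATF4, the factor of the integrated stress response. These pathways are background and order the results that follow.

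The 19 libraries held very unequal numbers of reads. Arsenic libraries had totals of 7272569 to 11980346 counts, controls 1 to 8 had 12580406 to 23917186 and controls 10 to 16 had 1932159 to 5399270. Another 8 water controls of the plate, numbered 9 to 16, carry a different plate barcode and were not analysed here. The replicate numbers therefore divide the wells: arsenic replicates 1 and 2 were set against the 8 controls with low numbers, and replicates 3 and 4 against the 7 with high numbers, beside the contrast of all 19. Controls of the low and high numbers also differed in inflammatory genes; S100A8 averaged 858 and 19.2 CPM (the counts-per-million unit) and SAA1 1891 and 201 CPM in them. The mitochondrially coded share of counts was 1.436 to 2.121% in the arsenic libraries and 3.887 to 5.648% in the controls. MCF10A markers summed to 3828 to 4488 CPM under arsenic and 4767 to 5379 CPM in the controls. Of 7 leukocyte markers in the files, CD3E, MS4A1, CD68, LYZ and ITGAM were at 0 in every control, where the list summed to 20.2 to 78.9 CPM and CD14 alone stood at 20.2 to 78.9 CPM (median 53); under arsenic the sum was 3.75 to 7.28 CPM, with MS4A1 at 0. Fibroblast markers summed to 12.2 to 46.2 CPM against 21.6 to 145.9 CPM, endothelial markers to 2.47 to 12.8 CPM against 0 to 6.88 CPM, and adipocyte markers to 1.99 to 2.79 CPM against 0 to 4.53 CPM, and the part of other cells in the results was not tested.

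At 25 µM, arsenic changed a large share of the genes that MCF10A cells express. Genes of the antioxidant, heat shock, ATF4 and autophagy programmes rose, and genes of DNA replication, mitosis, ribosome production, the mitochondrial genome and the basal epithelial state fell. In edgeR's quasi-likelihood test with Benjamini-Hochberg adjustment, 10051 of the 24295 genes tested passed an adjusted p of 0.05, which is 41.4%. Of these, 5635 were higher (23.2% of the genes tested) and 4416 lower (18.2%). Among the 14656 protein-coding genes tested, the kind that most list members are, 29% were higher and 27.1% lower. Values are given as CPM, a counts-per-million scale relative to the library size after TMM scaling, and differences as log2 fold changes, with a median of 0.001 over all genes tested. RLE scaling shifted that median to 0.14 and DESeq2 to 0.21, and the higher calls were 56.1% of all calls under TMM and 62.96% under RLE. In bulk RNA such as this, fewer cells of a kind and less RNA per cell cannot be told apart.

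Arsenic replicates 1 and 2 and replicates 3 and 4, each set beside the controls of like numbers, gave the same picture for most genes. Within replicates 1 and 2 and controls 1 to 8, 8313 genes were called (34.2%), and within replicates 3 and 4 and controls 10 to 16, 6566 (27%). The sets shared 5309 calls, which are 63.9% of the first and 80.9% of the second, and 5284 of them had the same direction. Of the 10051 calls over all wells, 9686 had the same sign in both sets. The difference of the arsenic effect between the sets was called for 170 genes (0.7%), and for 91, 92, 116 and 109 without arsenic replicates 1, 2, 3 and 4 in turn. The values within a set come from a fit, with its own scaling, of all libraries of the plate barcode in that set, the other chemicals included. The difference comes from 1 fit over all wells of the plate barcode, so a difference is not exactly the subtraction of the set values. Of the 170, 136 had the larger log2 fold change in replicates 3 and 4. Across the 7415 genes whose average log2 CPM reached 4, the log2 fold changes of the sets had a Pearson r of 0.918, a description over genes, which are not independent replicates. In 4258 genes (17.5%) all 4 arsenic libraries lay outside the range of the 15 controls, 2336 above it and 1922 below it.

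**Figure D1:**
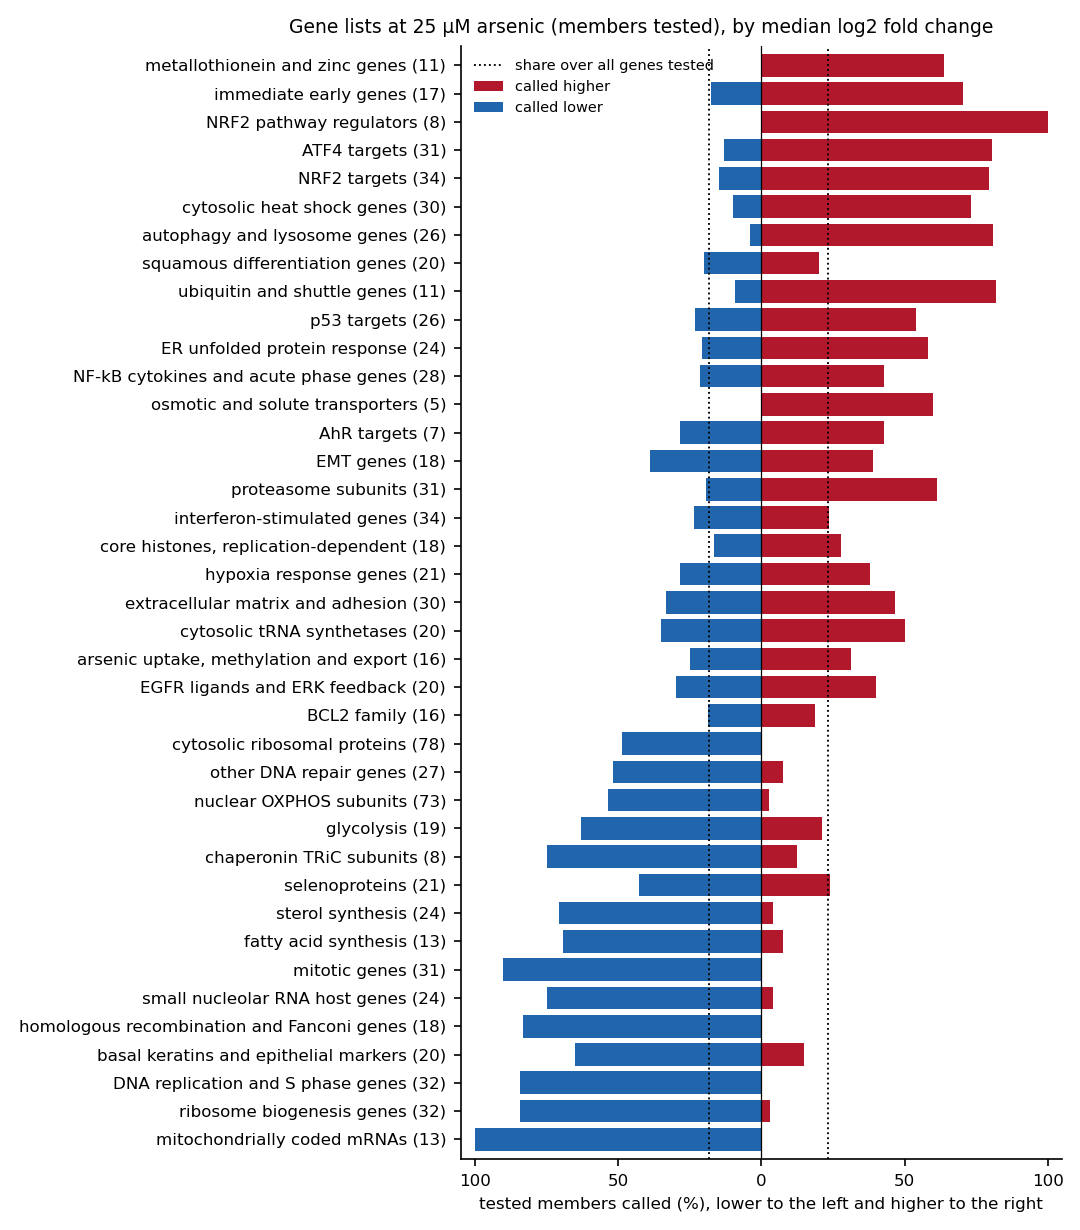
Share of the tested members of each of 39 gene lists that were called higher (red, to the right) or lower (blue, to the left) at 25 µM arsenic against water, in percent, ordered by median log2 fold change, with the shares over all genes tested (23.2% and 18.2%) as dotted lines. Metallothionein, immediate early, NRF2, ATF4, heat shock and autophagy genes lie at the top, and S phase, ribosome biogenesis and mitochondrially coded genes at the bottom.

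Several of the genes that rose most were close to silent in water. ARC, an immediate early gene, stood at 766, 808, 595 and 488 CPM in arsenic replicates 1 to 4 and at 0 to 0.511 CPM (median 0) in the controls. HSPA6, a strictly inducible HSP70 chaperone, stood at 573, 790.4, 633 and 602 CPM and in the controls at 0 to 3.67 CPM (median 0.509, log2 fold change 10.23 ± 0.27 SE, adjusted p = 5.23e-64). Both genes were near 0 in water, and no arsenic well overlapped a control, a condition of the rule that named them.

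The stress factor ATF3 was at 331, 357, 336 and 348 CPM against 0 to 2.59 CPM in water (median 0.218, log2 fold change 9.26 ± 0.23 SE, adjusted p = 2.01e-72). RRAD, a small GTPase, reached 989.8, 991, 705 and 699 CPM against 0 to 2.63 CPM (median 0.315). HMOX1, the heme-degrading enzyme, reached 1743, 1580, 1950 and 1746 CPM against 1.41 to 12.4 CPM (median 3.54, log2 fold change 8.82 ± 0.24 SE, adjusted p = 1.34e-53). The arsenic wells of all 3 lay far above the highest control. A place outside the control range was a condition of their naming.

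GDF15, a secreted stress cytokine, followed with a log2 fold change of 6.11, CYP4F11, a cytochrome P450 of fatty acids and vitamin K, with 5.45, and NUPR1, a stress-induced chromatin protein, with 5.09. ZFAND2A, a proteasome-associated zinc finger protein known for its response to arsenite, was at 216, 248, 214 and 228 CPM against 0.315 to 10.5 CPM (median 7.95, log2 fold change 4.90 ± 0.19 SE, adjusted p = 1.18e-41). SPRR2D, a cornified envelope protein, was at 84.5, 100.2, 55.5 and 75.7 CPM and at 0 to 0.0944 CPM in the controls.

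Genes that fell most included transport and surface proteins of epithelium. SCNN1G and SCNN1B, subunits of the epithelial sodium channel, were at 4.07, 4.43, 7.28 and 4.87 CPM against 124 to 219 CPM (median 191) and at 3.75, 1.20, 7.02 and 3.19 CPM against 10.1 to 102 CPM (median 67.4). Their log2 fold changes were -5.18 at adjusted p = 5.29e-20 and -4.20 at adjusted p = 1.21e-10. FGFBP1, a carrier of fibroblast growth factors, was at 1.39, 0.838, 10.4 and 1.36 CPM against 86.1 to 163 CPM (median 117, log2 fold change -5.23 ± 0.34 SE, adjusted p = 1.44e-25). TNNI2, a troponin subunit, had counts in 1 of 4 arsenic libraries (3 counts in all) and 12.8 to 41 CPM (median 22.6) in the controls. All of these arsenic wells were under the lowest control, which the rule that named these genes required.

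CLCA2, a p53-responsive adhesion protein of basal cells, fell by 6.13 on the log2 scale, the matrix metalloprotease MMP28 by 5.33, METTL7A by 4.74, CD14 by 4.68, PODXL2 by 4.31, SYT8 by 4.11 and CAVIN2, a caveolar coat protein, by 4.04. GALNT15, a glycosyltransferase, fell by 5.12 over all wells, with -6.64 and -2.58 in the low-numbered and high-numbered wells, and its call was lost against controls 10 to 16 alone.

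**Figure D2:**
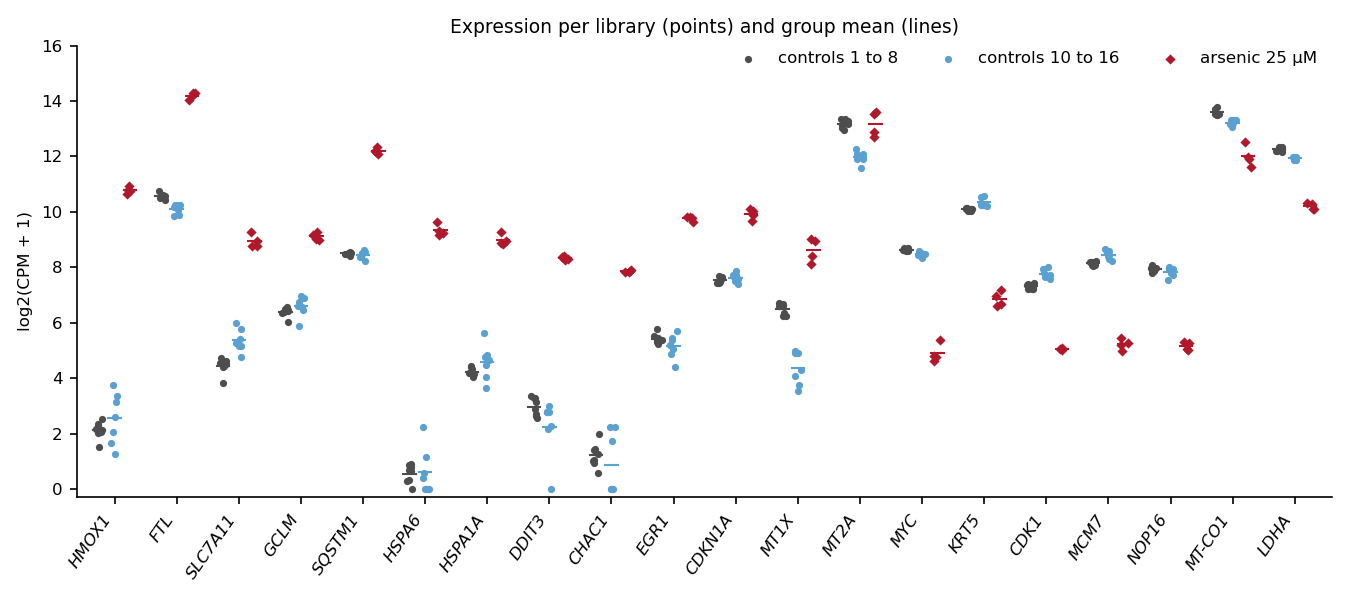
Expression of 20 genes as log2(CPM + 1) in controls 1 to 8 (dark), controls 10 to 16 (blue) and the 4 arsenic libraries (red diamonds), with a line at each mean. The arsenic points lie apart from both sets of controls for every gene shown but MT2A.

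The NRF2 programme rose. Of 34 NRF2 targets tested, 27 were called higher and 5 lower, against 23.2% and 18.2% of all genes and 29% and 27.1% of protein-coding ones, with a median log2 fold change of 1.27, and the median was 1.18 in the low-numbered and 1.57 in the high-numbered wells. All 5 genes of heme and iron handling rose. After HMOX1, the largest was FTL, the light chain of the iron store ferritin, at 20090, 19800, 16610 and 18720 CPM against 922 to 1733 CPM (median 1369, log2 fold change 3.82 ± 0.11 SE, adjusted p = 1.03e-51). FTH1, the ferritin heavy chain, was at 15690, 14810, 13400 and 13850 CPM against 3194 to 7762 CPM (median 6298, log2 fold change 1.43 ± 0.20 SE, adjusted p = 1.71e-09). Both chains lay above the highest control in every arsenic well.

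Cystine uptake and glutathione synthesis did not move as 1 unit. SLC7A11, the cystine transporter, was at 439, 436, 618 and 493 CPM against 13.3 to 61.9 CPM (median 25.4, log2 fold change 4.24 ± 0.23 SE, adjusted p = 8.78e-30). GCLM, the modifier subunit of the rate-limiting glutathione enzyme, was at 509.9, 516, 623 and 577 CPM against 58.5 to 123 CPM (median 86.9, log2 fold change 2.66 ± 0.13 SE, adjusted p = 1.33e-33). GCLC, the catalytic subunit of the same enzyme, went the other way, at 112, 98.4, 115 and 126 CPM against 143 to 224 CPM (median 174, log2 fold change -0.63 ± 0.14 SE, adjusted p = 7.65e-05). Every arsenic well lay above the controls for SLC7A11 and GCLM and below them for GCLC.

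The 4 thioredoxin genes rose, with TXNRD1, thioredoxin reductase, at 673, 671, 886 and 794 CPM against 182 to 302 CPM (median 227, log2 fold change 1.74 ± 0.14 SE, adjusted p = 4.29e-20), SRXN1, which repairs oxidized peroxiredoxin, at a log2 fold change of 2.29, TXN at 1.31 and PRDX1 at 0.36. Of 5 genes that supply NADPH, ME1 (1.74), TALDO1 (0.70) and PGD (0.59) rose. TKT, transketolase of the pentose phosphate pathway, fell (log2 fold change -0.73 ± 0.082 SE, adjusted p = 8.83e-13). Of 9 quinone and carbonyl reductases 6 rose, among them NQO1 at 1504, 1342, 1389 and 1665 CPM against 559 to 698 CPM (median 623, log2 fold change 1.24 ± 0.080 SE, adjusted p = 2.13e-25) and PTGR1 (2.42). AKR1C1 rose by 1.63 and AKR1C2 fell by 0.93 on the log2 scale, but these near-identical genes share reads, so their division is uncertain. Among export and other targets, OSGIN1 rose by 4.19 and TRIM16L by 2.46, and ABCC3 was not called (-0.27 at adjusted p = 0.0507).

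All 8 regulators of the pathway rose, with a median of 1.55. SQSTM1, the autophagy receptor that also binds KEAP1, was at 4578, 4347, 4655 and 5169 CPM against 301 to 396 CPM (median 362, log2 fold change 3.72 ± 0.079 SE, adjusted p = 3.36e-62). The small MAF partners MAFG, MAFF and MAFK had log2 fold changes of 2.11, 2.03 and 2.7, and the repressor BACH1 1.07. NFE2L2, which encodes NRF2, and KEAP1 changed little by comparison, with 0.46 at adjusted p = 4.63e-06 and 0.35 at adjusted p = 0.00134.

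Promoters of RefSeq (GRCh38.p14), taken as the 250 bases before the gene start, were matched for 24 of the 34 NRF2 targets. The antioxidant response element was searched as TGACNNNGC on both strands and was in 6 of the 24 (25.0%), in 15.5% of the tested genes with a promoter and in 10.9% of all 35116 promoters. It was in 5 of the 20 members called higher (25%) and in 17.3% of all genes called higher with a promoter. A match is a description of letters, not a binding site, and known elements of HMOX1 and NQO1 lie outside such a window. Shown with the element in capitals are the promoters of GCLM (chr1:93909431-93909680, minus strand) and TXNRD1 (chr12:104215529-104215778, plus strand), the glutathione subunit that rose and the thioredoxin reductase.
GCLM: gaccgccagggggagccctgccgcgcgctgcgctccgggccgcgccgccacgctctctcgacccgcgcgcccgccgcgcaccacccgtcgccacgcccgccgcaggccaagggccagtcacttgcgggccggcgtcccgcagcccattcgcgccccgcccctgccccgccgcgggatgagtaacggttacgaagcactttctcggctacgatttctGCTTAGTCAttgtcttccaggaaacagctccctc
TXNRD1: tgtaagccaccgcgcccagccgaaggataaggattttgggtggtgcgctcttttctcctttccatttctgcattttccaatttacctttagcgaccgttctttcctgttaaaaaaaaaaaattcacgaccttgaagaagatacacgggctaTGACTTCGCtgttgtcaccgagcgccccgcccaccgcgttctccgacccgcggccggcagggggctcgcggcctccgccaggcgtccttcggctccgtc

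Metal-responsive genes rose, and the size of the change in MT1X differed between the 2 sets of wells. Metallothioneins are small cysteine-rich proteins that bind zinc, cadmium and arsenic. Of 11 metallothionein and zinc genes tested, 7 were called higher and none lower, against 29% and 27.1% of protein-coding genes. The median was 2.04, and 0.98 and 2.33 in the low-numbered and high-numbered wells. MT1X was at 523, 492, 343 and 274 CPM against 10.7 to 103 CPM (median 74.5, log2 fold change 2.61 ± 0.40 SE, adjusted p = 2.26e-08), and its log2 fold change was 2.50 and 4.09 in the low-numbered and high-numbered wells, a difference of 1.49 at adjusted p = 0.00025. The water controls of these wells averaged 90.6 and 20.9 CPM.

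MT1F rose by 2.04 on the log2 scale, and MT1E by 1.07. MT2A, the most abundant of the family, was at 12310, 11790, 7447 and 6661 CPM against 3028 to 10550 CPM (median 7833), so the groups overlapped over all wells and it was not called (log2 fold change 0.47 ± 0.24 SE, adjusted p = 0.113). Within the sets it was called, with 0.37 and 0.91 on the log2 scale: controls 1 to 8 reached at most 10550 CPM and controls 10 to 16 at most 4883 CPM, under both arsenic wells of their set. The difference between the sets was 0.44 at adjusted p = 0.214. MT1G was at 3.32, 6.46, 6.24 and 2.31 CPM and MT1A, with no count in any control, at 0.750, 0, 0 and 1.28 CPM. Metallothionein genes are near-identical in sequence, and the division of reads among them is uncertain. SLC30A1, the zinc exporter and a classical MTF1 target without such copies, was at 209.8, 179.7, 194 and 197 CPM against 24.2 to 50.4 CPM (median 34.2, log2 fold change 2.54 ± 0.15 SE, adjusted p = 8.59e-29), with 2.69 and 2.33 in the 2 sets.

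Of the 13 genes of the metallothionein and zinc list, 6 had a RefSeq promoter. The metal response element was searched as TGCACNC or TGCGCNC on both strands and was in 5 of the 6 (83.3%), in 37.6% of tested genes with a promoter and in 24.8% of all promoters, so these short letters are common. It was in 2 of the 3 members called higher (66.7%) and in 37.4% of all genes called higher with a promoter. MT1H, MT2A and MT1B held it and were not called. MT1X (chr16:56682220-56682469, plus strand) held 4 matches and SLC30A1 (chr1:211579162-211579411, minus strand) held 1. Both are shown because they are the 2 members called higher whose promoter held the element.
MT1X: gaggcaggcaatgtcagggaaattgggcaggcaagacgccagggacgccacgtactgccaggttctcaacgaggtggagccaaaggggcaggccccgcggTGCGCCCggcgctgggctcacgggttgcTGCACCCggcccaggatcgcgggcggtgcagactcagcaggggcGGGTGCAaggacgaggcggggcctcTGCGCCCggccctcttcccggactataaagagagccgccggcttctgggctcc
SLC30A1: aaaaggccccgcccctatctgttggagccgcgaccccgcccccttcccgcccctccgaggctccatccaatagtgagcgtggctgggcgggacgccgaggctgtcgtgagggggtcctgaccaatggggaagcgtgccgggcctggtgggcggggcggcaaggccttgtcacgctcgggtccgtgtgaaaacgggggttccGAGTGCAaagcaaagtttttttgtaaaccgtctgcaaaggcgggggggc

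Genes that handle arsenic itself showed no common direction. Of 16 tested, 5 rose and 4 fell, with a median of 0.068, against 29% higher and 27.1% lower among protein-coding genes. AQP3, an aquaglyceroporin through which arsenite enters cells, was at 62.5, 63.3, 51.5 and 63.3 CPM against 0.458 to 27.8 CPM (median 18.3, log2 fold change 1.66 ± 0.32 SE, adjusted p = 8.17e-06). GSTO1, which reduces methylated arsenic, was at 449.7, 423, 374 and 398 CPM against 137 to 242 CPM (median 199, log2 fold change 1.08 ± 0.11 SE, adjusted p = 2.73e-15), while GSTO2 fell by 1.21, PNP by 0.71 and N6AMT1 by 1.32 on the log2 scale. AS3MT, the arsenic methyltransferase, had no count in any of the 19 libraries. The exporter ABCC2 rose by 1.20 and ABCC1 by 0.46 at adjusted p = 0.0211, but ABCC1 overlapped the controls and its call was lost without arsenic replicate 1 or 3.

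Selenoproteins, which carry selenocysteine and include many antioxidant enzymes, were called in both directions. Of 21 tested, 5 rose and 9 fell, against 29% higher and 27.1% lower among protein-coding genes. GPX1, the abundant glutathione peroxidase, was at 143, 135, 123 and 109 CPM against 263 to 539 CPM (median 417, log2 fold change -1.67 ± 0.16 SE, adjusted p = 2.06e-16). SELENOW (-1.60), SELENOT (-1.16) and GPX4 (-0.56) also fell. SEPHS2, which makes the selenium donor, rose by 1.71, as did SELENOM (1.98), SELENOS (1.27) and SELENOK (1.24), the last 2 being proteins of the endoplasmic reticulum. The list's median was -0.61 in the low-numbered and 0.20 in the high-numbered wells.

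Cytosolic chaperone genes rose together. Of 30 heat shock genes tested, 22 were called higher and 3 lower, against 29% and 27.1% of protein-coding genes. The median was 1.13, and 1.34 and 1.09 in the low-numbered and high-numbered wells. In the HSP70 family 7 of 8 rose, HSPA4L being the exception (-0.21 at adjusted p = 0.216). HSPA1A was at 470, 617, 461 and 492 CPM against 11.6 to 48.8 CPM (median 19.2, log2 fold change 4.69 ± 0.19 SE, adjusted p = 3.53e-39), and its near-identical neighbour HSPA1B, with which it shares reads, at a log2 fold change of 3.74. HSPA8, the constitutive member, was at 8431, 8434, 7722 and 8781 CPM against 3144 to 4678 CPM (median 3557, log2 fold change 1.10 ± 0.10 SE, adjusted p = 9.87e-17). Every arsenic well was above every control for these genes, which the naming rule required of HSPA1A.

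All 6 HSP40 and HSP110 co-chaperones rose. DNAJB1, the main HSP40 of the heat shock response, was at 599, 734, 666 and 708 CPM against 110.3 to 216 CPM (median 140.4, log2 fold change 2.24 ± 0.14 SE, adjusted p = 8.32e-27). HSPH1, an HSP110 exchange factor, was at 753, 814, 734 and 799.9 CPM against 113 to 262 CPM (median 139, log2 fold change 2.38 ± 0.14 SE, adjusted p = 3.29e-27). The effect on HSPH1 was larger in the low-numbered wells, 2.67 and 2.14 in the 2 sets, and the difference of -0.62 at adjusted p = 0.0105 was called.

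Small heat shock proteins, which hold unfolded proteins, rose as well. CRYAB, alphaB-crystallin, was at 132, 130.4, 110 and 121 CPM against 0 to 2.87 CPM (median 0.0436, log2 fold change 8.91 ± 0.30 SE, adjusted p = 2.20e-61), and HSPB8, the partner of BAG3 in chaperone-assisted autophagy, at 51.6, 44.6, 76.5 and 105 CPM against 0 to 14.5 CPM (median 3.41, log2 fold change 4.32 ± 0.27 SE, adjusted p = 3.85e-26). BAG3 rose by 1.39 and HSPB1 by 0.70.

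The HSP90 genes moved less: HSP90AB1 rose by 0.62 and HSP90AA1 by 0.37, the co-chaperone CDC37 rose by 1.17, PTGES3 fell by 0.33, and AHSA1 and FKBP4 were not called (0.15 at adjusted p = 0.139 and -0.23 at adjusted p = 0.159). The mitochondrial chaperones HSPD1 and HSPE1 fell (-0.61 and -0.69), and the factor HSF1 was not called (0.28 at adjusted p = 0.16). TRiC, the ring chaperonin that folds actin and tubulin, went against the heat shock genes, with 6 of 8 subunits lower, CCT4 higher (0.31) and TCP1 not called (0.13 at adjusted p = 0.356). Among protein-coding genes 27.1% were lower and 29% higher.

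A heat shock element, searched as GAANNTTC or TTCNNGAA, letters that read the same on both strands, was in 17 of the 27 heat shock genes with a RefSeq promoter (63%) and in 15 of the 21 of those called higher (71.4%). It was in 12.5% of all tested genes with a promoter and in 11.6% of all promoters. The 5 promoters shown carry it in capitals (overlapping matches run together) and range from the gene that rose most in the list to the constitutive HSPA8: HSPA6 (chr1:161524290-161524539, plus strand), HSPA1A (chr6:31815293-31815542, plus strand), HSPB8 (chr12:119178681-119178930, plus strand), DNAJB1 (chr19:14518398-14518647, minus strand) and HSPA8 (chr11:123062137-123062386, minus strand).
HSPA6: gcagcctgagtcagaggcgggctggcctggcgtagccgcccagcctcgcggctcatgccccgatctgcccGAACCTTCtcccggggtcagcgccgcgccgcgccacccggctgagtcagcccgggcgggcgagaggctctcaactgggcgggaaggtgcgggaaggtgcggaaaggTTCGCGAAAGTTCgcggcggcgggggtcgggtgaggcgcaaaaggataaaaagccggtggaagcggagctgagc
HSPA1A: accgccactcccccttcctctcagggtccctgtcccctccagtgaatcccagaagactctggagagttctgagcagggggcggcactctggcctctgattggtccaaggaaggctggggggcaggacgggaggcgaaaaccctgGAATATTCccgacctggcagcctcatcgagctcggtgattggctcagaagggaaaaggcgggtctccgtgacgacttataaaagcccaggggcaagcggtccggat
HSPB8: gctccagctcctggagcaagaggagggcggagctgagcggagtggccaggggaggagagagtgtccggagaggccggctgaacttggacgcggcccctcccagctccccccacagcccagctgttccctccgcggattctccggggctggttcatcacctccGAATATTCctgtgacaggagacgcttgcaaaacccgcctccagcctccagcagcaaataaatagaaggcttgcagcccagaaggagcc
DNAJB1: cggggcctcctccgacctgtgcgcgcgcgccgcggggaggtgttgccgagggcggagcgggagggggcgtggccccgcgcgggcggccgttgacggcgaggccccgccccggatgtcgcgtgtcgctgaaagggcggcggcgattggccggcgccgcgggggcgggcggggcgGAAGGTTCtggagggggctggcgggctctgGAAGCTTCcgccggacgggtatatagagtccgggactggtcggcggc
HSPA8: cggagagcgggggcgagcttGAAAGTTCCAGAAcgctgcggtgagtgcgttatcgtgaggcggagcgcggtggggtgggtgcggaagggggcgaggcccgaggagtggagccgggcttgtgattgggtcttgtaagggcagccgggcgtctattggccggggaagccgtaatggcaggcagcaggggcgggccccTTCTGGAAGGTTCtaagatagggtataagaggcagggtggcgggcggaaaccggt

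Genes that carry damaged proteins to the proteasome rose, and those of the proteasome itself rose in part. Of 11 ubiquitin and shuttle genes 9 were higher and 1 lower, against 29% and 27.1% of protein-coding genes. UBB, a polyubiquitin gene, was at 283, 290.3, 261 and 233 CPM against 74.7 to 143 CPM (median 108, log2 fold change 1.28 ± 0.12 SE, adjusted p = 3.28e-16). RPS27A, which encodes ubiquitin fused to a ribosomal protein, fell (-0.48 at adjusted p = 0.017). Of 31 proteasome subunits 19 rose and 6 fell, against the same 29% and 27.1%, with a median of 0.29. All 6 ATPases and 8 of 11 other subunits of the 19S cap rose, led by PSMD8 (1.0), PSMC2 (1.0) and PSMD2 (0.99). Of the 7 alpha subunits of the 20S core none rose and 4 fell, and of the 7 beta subunits 5 rose, PSMB7 by 1.31.

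The unfolded protein response of the endoplasmic reticulum showed a divided pattern. Of 24 genes tested, 14 rose and 5 fell, against 29% and 27.1% of protein-coding genes, with a median of 0.61. HSPA5 (BiP), the main chaperone of the compartment, was at 1895, 1987, 2274 and 2459 CPM against 473 to 629 CPM (median 546, log2 fold change 2.0 ± 0.099 SE, adjusted p = 4.66e-33). HERPUD1, of the degradation machinery, was at 408, 433, 425 and 475 CPM against 27.1 to 55 CPM (median 42.7, log2 fold change 3.28 ± 0.11 SE, adjusted p = 6.90e-45). Of 14 chaperones, 5 rose and 5 fell: DNAJB9 rose by 2.84 and DNAJC3 by 1.39, while PDIA4 fell by 1.71, MANF by 1.07 and PDIA6 by 0.82. HSP90B1 and HYOU1 were not called (0.004 at adjusted p = 0.996 and -0.099 at adjusted p = 0.593). Of 6 degradation genes 5 rose, and all 4 sensors and factors, XBP1 by 2.03, ATF6 by 1.30, ERN1 by 1.18 and EIF2AK3 by 1.0. The 5 lower calls became 3 under RLE scaling, DESeq2 or controls 10 to 16 alone.

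ATF4 targets rose in greater number. Of 31 tested, 25 were higher and 4 lower, against 29% and 27.1% of protein-coding genes. The median was 1.49, and 1.54 and 1.61 in the 2 sets. Of 7 transcription factors 6 rose. DDIT3 (CHOP) was at 304, 326, 312 and 336 CPM against 0 to 9.16 CPM (median 5.85, log2 fold change 5.58 ± 0.19 SE, adjusted p = 4.12e-45). ATF4 itself rose by 1.48, ATF5 by 2.48 and CEBPG by 1.39, and CEBPB was not called (0.28 at adjusted p = 0.108).

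In the feedback group, CHAC1, which degrades glutathione, was at 233, 226, 239.6 and 225 CPM against 0 to 3.73 CPM (median 1.09, log2 fold change 7.33 ± 0.18 SE, adjusted p = 9.48e-65). PPP1R15A (GADD34), which restores translation, was at 606, 641, 572 and 609.8 CPM against 8.81 to 27.1 CPM (median 17.7, log2 fold change 5.17 ± 0.14 SE, adjusted p = 7.36e-54). SESN2 rose by 4.27 and TRIB3 by 2.48. DDIT4 (REDD1), an inhibitor of mTORC1, did the opposite, at 196, 177, 175 and 211 CPM against 677 to 1014 CPM (median 931, log2 fold change -2.23 ± 0.17 SE, adjusted p = 1.44e-20).

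Amino acid genes followed the factors in part. PHGDH, the first enzyme of serine synthesis, was at 629, 572, 702 and 611 CPM against 111 to 179 CPM (median 156, log2 fold change 2.0 ± 0.089 SE, adjusted p = 1.60e-36), and CTH, which makes cysteine, rose by 3.95, MTHFD2 by 1.49 and PSAT1 by 1.11. ALDH18A1 fell by 1.13 and SHMT2 by 0.22. ASNS, asparagine synthetase, was called higher at a low level, at 2.57, 1.68, 3.90 and 2.87 CPM against 0 to 2.16 CPM (median 0.353, log2 fold change 2.32 ± 0.67 SE, adjusted p = 0.00241), and the call was lost against controls 10 to 16 alone and in thinned libraries. The transporter SLC7A5 fell (log2 fold change -1.03 ± 0.29 SE, adjusted p = 0.00207), while its partner SLC3A2 rose by 0.69. Of 20 cytosolic tRNA synthetases, 10 rose and 7 fell, against 29% and 27.1% of protein-coding genes. WARS1 (2.77), GARS1 (2.72) and CARS1 (2.16) rose most, and FARSB fell most (-1.59).

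Autophagy and lysosome genes rose in 21 of 26 cases and 1 fell, against 29% and 27.1% of protein-coding genes, with a median of 1.01. MAP1LC3B, the LC3 protein of the autophagosome membrane, was at 1452, 1613, 1684 and 1657 CPM against 77.9 to 136 CPM (median 118, log2 fold change 3.79 ± 0.082 SE, adjusted p = 3.43e-61). All 5 receptors rose, OPTN by 1.98 and TAX1BP1 by 1.95 after SQSTM1. GABARAPL1 rose by 2.84, ULK1, the starting kinase, by 2.76 and WIPI1 by 2.64. ATG7 and ATG16L1 were not called (0.051 at adjusted p = 0.801 and -0.37 at adjusted p = 0.0853). In the lysosome group, LAMP1 was at 109, 195, 327 and 158 CPM against 6.62 to 22 CPM (median 16.5, log2 fold change 3.57 ± 0.20 SE, adjusted p = 6.23e-30). TFEB, a master regulator of these genes, was the 1 lower member (-0.74 at adjusted p = 0.035), a call lost under RLE and upper-quartile scaling and without arsenic replicate 1, 2 or 3, among others.

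Immediate early genes, which normally flare within an hour of a stimulus, were high at 48 h. Of 17 tested, 12 rose and 3 fell, against 29% and 27.1% of protein-coding genes, with a median of 1.61. EGR1 was at 799, 896, 886 and 909 CPM against 20.3 to 53.8 CPM (median 40.3, log2 fold change 4.44 ± 0.13 SE, adjusted p = 1.33e-49). FOS was at 276, 283, 183 and 208 CPM against 6.87 to 65.6 CPM (median 40.2, log2 fold change 2.54 ± 0.30 SE, adjusted p = 6.66e-12), with 2.41 and 4.11 in the 2 sets and a difference of 1.60 at adjusted p = 0.000251 between them. FOSB was at 43.3, 42.7, 43.1 and 46 CPM against 0 to 1.12 CPM (median 0), and JUN rose by 2.86. MYC, the growth-promoting factor of this list, went the other way, at 26.4, 23.6, 40.8 and 26.8 CPM against 323 to 416 CPM (median 382, log2 fold change -3.70 ± 0.10 SE, adjusted p = 5.62e-53).

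Of 20 EGFR ligands and ERK feedback genes, 8 rose and 6 fell, against 29% and 27.1% of protein-coding genes. Without arsenic replicate 3, 5 rose. HBEGF, a heparin-binding EGFR ligand, was at 104, 121, 81.7 and 78.3 CPM against 0 to 5.83 CPM (median 4.62, log2 fold change 4.43 ± 0.23 SE, adjusted p = 2.61e-32), whereas AREG, a ligand abundant in water, was at 183, 194, 209 and 171 CPM against 339.8 to 733 CPM (median 579.9, log2 fold change -1.57 ± 0.15 SE, adjusted p = 4.53e-16). The receptor EGFR fell by 0.74. Of the ERK feedback genes, DUSP5 rose by 2.83 and SPRY4 by 2.26, while SPRY2 fell by 1.23 and DUSP6 by 0.69.

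Among p53 targets 14 of 26 rose and 6 fell, against 29% and 27.1% of protein-coding genes, with a median of 0.65. CDKN1A (p21), which stops the cell cycle, was at 941, 819, 1097 and 1037 CPM against 166 to 229.8 CPM (median 192, log2 fold change 2.34 ± 0.098 SE, adjusted p = 2.12e-38), and GADD45A at 168, 178, 209.9 and 163 CPM against 8.40 to 26.4 CPM (median 16.1, log2 fold change 3.56 ± 0.19 SE, adjusted p = 2.63e-30). PMAIP1 (NOXA), a BH3-only protein, was at 289, 285, 237 and 246 CPM against 8.63 to 22 CPM (median 15.2, log2 fold change 4.16 ± 0.15 SE, adjusted p = 9.78e-44), and BBC3 (PUMA) rose by 2.94.

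MDM2, the ligase that degrades p53, was at 81.2, 83.3, 84.8 and 87.6 CPM against 57.8 to 99.9 CPM (median 78.8) and was not called (0.13 at adjusted p = 0.423), nor was BAX (-0.25 at adjusted p = 0.15), while FAS (-0.78), SESN1 (-2.03), DDB2 (-1.62), FDXR (-1.66), SFN (-1.16) and CCNG1 (-0.41) fell. Of 16 BCL2 family genes 3 rose and 3 fell, against 29% and 27.1% of protein-coding genes. MCL1 and BCL2L1 were not called (-0.12 at adjusted p = 0.402 and -0.064 at adjusted p = 0.76).

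Proliferation genes fell. Of 31 mitotic genes 28 were lower and none higher, with a median of -0.98, against 18.2% lower among all genes and 27.1% among protein-coding ones. The median was -0.65 in the low-numbered and -1.16 in the high-numbered wells. The difference between the sets was called for 5 of the 31, against 0.7% of all genes tested. CDK1, the mitotic kinase, was at 32.4, 31.7, 33.4 and 32.6 CPM against 146 to 259 CPM (median 173, log2 fold change -2.49 ± 0.17 SE, adjusted p = 1.42e-24), and KIF20A, a kinesin of cytokinesis, at 30.5, 29.7, 30.7 and 29.4 CPM against 163 to 225 CPM (median 177, log2 fold change -2.59 ± 0.14 SE, adjusted p = 1.25e-29). CCNB1 fell less (-0.63), MKI67 by 1.45 and TOP2A by 1.86. NEK2 and CENPE were not called (-0.15 at adjusted p = 0.475 and -0.22 at adjusted p = 0.273).

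Of 32 genes of DNA replication and S phase, 27 fell and none rose, against 27.1% lower among protein-coding genes, with a median of -1.38. MCM7, a subunit of the replicative helicase, was at 35.9, 30.6, 43.2 and 37.3 CPM against 263 to 399 CPM (median 297, log2 fold change -3.08 ± 0.17 SE, adjusted p = 3.76e-30). The other helicase subunits fell by 1.36 (MCM2), 2.91 (MCM3), 1.90 (MCM4), 2.50 (MCM5) and 2.28 (MCM6) on the log2 scale. TYMS, thymidylate synthase, was at 9.86, 9.22, 9.63 and 4.87 CPM against 47.2 to 93.6 CPM (median 56.3, log2 fold change -2.85 ± 0.23 SE, adjusted p = 5.70e-20). CDC6, CCNE1, CCNE2, POLE and RPA2 were not called, with -0.39 at adjusted p = 0.225 for CDC6 and 0.19 at adjusted p = 0.611 for CCNE1. RRM2 fell by 1.33, with -0.99 and -1.62 in the 2 sets and a called difference of -0.73 at adjusted p = 0.0186.

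Of 18 homologous recombination and Fanconi genes, 15 fell and none rose, against 27.1% lower among protein-coding genes. The median was -1.03, and -0.72 and -1.34 in the low-numbered and high-numbered wells. EXO1 (-2.07) and RAD54L (-1.95) fell most, and BRCA2 was not called (0.42 at adjusted p = 0.0885). Among 27 other repair genes, 14 fell and 2 rose, against 27.1% and 29% of protein-coding genes. PARP1, which senses DNA breaks and whose zinc fingers bind arsenite, was at 124, 94.8, 107 and 101 CPM against 414 to 519 CPM (median 453, log2 fold change -2.10 ± 0.082 SE, adjusted p = 1.33e-40). APEX1 fell by 1.81 and PRKDC by 1.51, and XPC and ERCC1 were the 2 that rose (0.71 and 0.40); 5 rose under RLE scaling.

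Ribosome production fell at several levels. Of 32 ribosome biogenesis genes, 27 fell and 1 rose, against 27.1% and 29% of protein-coding genes, with a median of -1.40. NOP16 was at 31.1, 37.2, 38.1 and 32 CPM against 184 to 269 CPM (median 236, log2 fold change -2.78 ± 0.099 SE, adjusted p = 1.17e-43), and BOP1, of the large-subunit assembly complex, at 25.3, 19.6, 31.5 and 20.8 CPM against 151 to 239 CPM (median 194, log2 fold change -2.99 ± 0.22 SE, adjusted p = 9.86e-22). DKC1 fell by 1.96, NCL by 1.78 and POLR1B, a subunit of RNA polymerase I, by 2.38. RRN3, its initiation factor, was the member that rose (0.47 at adjusted p = 0.00242), and PES1 was not called (-0.34 at adjusted p = 0.0666).

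Of 24 small nucleolar RNA host genes 18 fell and 1 rose, against 18.2% lower and 23.2% higher among all genes. SNHG3 (-2.87) and SNHG15 (-2.74) were among the lowest. Against controls 10 to 16 alone 10 fell. Host gene counts may hold reads of the RNAs they enclose, and with the strand setting unknown a gene and its antisense partner cannot be told apart.

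Of 78 cytosolic ribosomal proteins 38 fell and none rose, with a median of -0.41, against 27.1% lower among protein-coding genes. The count of those that fell depended on the wells and the scaling. It was 69 against controls 1 to 8 alone, 11 against controls 10 to 16 alone, 20 under RLE scaling, and 24 and 23 without replicate 3 and replicate 4. Ribosomal protein genes took 6.2 to 7.71% of counts under arsenic and 6.87 to 11.03% in the controls. Mitochondrial ribosomal proteins fell in 61 of 77 cases and rose in none, with a median of -0.77, and 52 fell and 3 rose under RLE scaling.

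Every one of the 13 mRNAs coded by the mitochondrial genome fell, with a median of -1.41, in the low-numbered and the high-numbered wells alike. MT-CO1, a subunit of cytochrome c oxidase, was at 3819, 4062, 5909 and 3136 CPM against 8590 to 14170 CPM (median 11420, log2 fold change -1.39 ± 0.12 SE, adjusted p = 6.77e-19). MT-ATP6 fell by 2.08, MT-CO3 by 1.95 and MT-ND6, the 1 mRNA on the other strand, by 0.80. In 12 of the 13 all arsenic wells were under all controls, MT-ND3 being the exception.

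Nuclear genes for the respiratory chain fell less and unevenly. Of 73 tested, 39 fell and 2 rose, with a median of -0.48; 25 fell against controls 10 to 16 alone. By complex, 10 of 12 subunits of ATP synthase fell, 7 of 9 of complex III and 3 of 4 of complex II. In complex I 16 of 38 fell and in complex IV 3 of 10, against 27.1% of protein-coding genes.

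**Figure D3:**
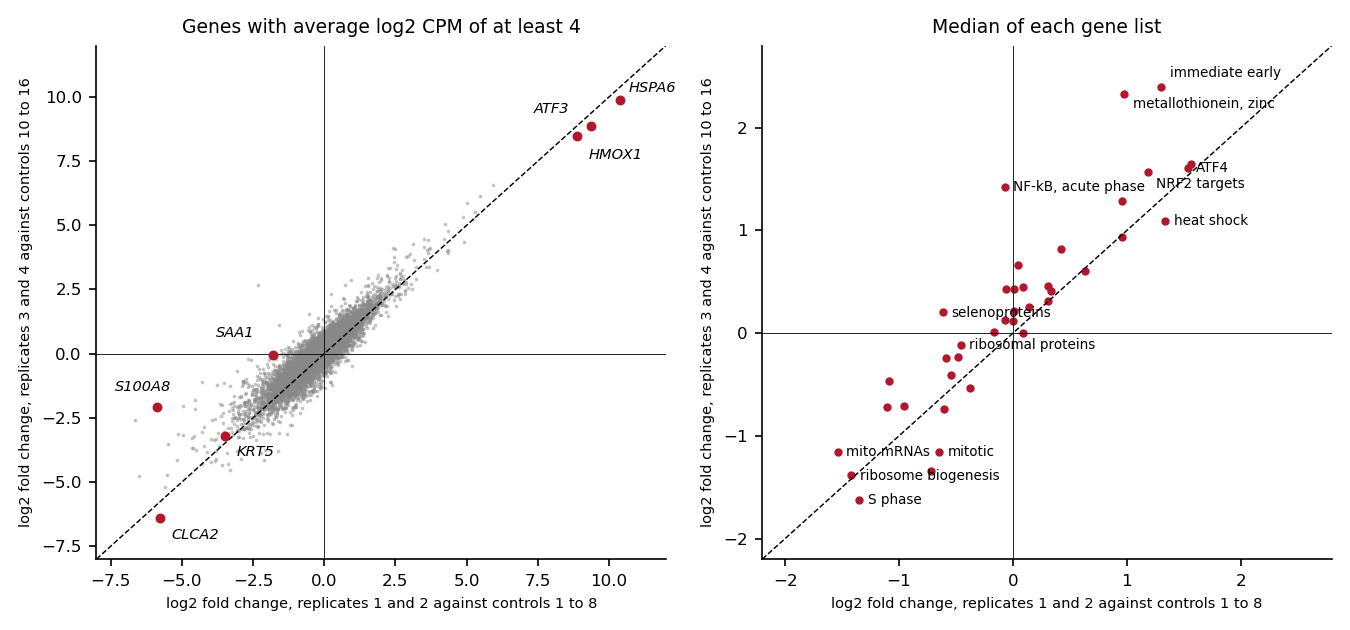
Log2 fold change of arsenic 25 µM against water in replicates 1 and 2 with controls 1 to 8 (horizontal) and in replicates 3 and 4 with controls 10 to 16 (vertical), for genes whose average log2 CPM reached 4 (left; 3 genes beyond the axes are not drawn) and for the median of each of 39 gene lists (right), with the line of equality dashed. Most points follow the line, and S100A8, SAA1 and the medians of the NF-kB and metallothionein lists lie above it.

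Lipid and sugar metabolism fell in most of its genes. Of 24 sterol synthesis genes 17 fell and 1 rose, against 27.1% and 29% of protein-coding genes, with a median of -0.69. MVK, mevalonate kinase, was at 28.7, 36.4, 28.5 and 27.6 CPM against 64.2 to 126 CPM (median 84.2, log2 fold change -1.49 ± 0.15 SE, adjusted p = 4.13e-15). IDI1 and MSMO1 were not called (0.16 at adjusted p = 0.25 and 0.14 at adjusted p = 0.359). Of 13 fatty acid genes 9 fell, FASN by 1.96, ACACA by 1.92 and SCD by 1.79, and ME1 alone rose. Of 19 glycolysis genes 12 fell and 4 rose, against the same 27.1% and 29%. Without arsenic replicate 1, 2 rose. LDHA, lactate dehydrogenase, was at 1282, 1106, 1254 and 1102 CPM against 3742 to 5143 CPM (median 4527, log2 fold change -1.90 ± 0.13 SE, adjusted p = 5.61e-23), ENO1 fell by 0.73 and PKM by 0.49, and GAPDH was not called (-0.040 at adjusted p = 0.797).

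Genes known from hypoxia went in both directions, 8 of 21 higher and 6 lower, against 29% and 27.1% of protein-coding genes. VEGFA, an angiogenic factor, was at 31.3, 30.2, 19.6 and 49.8 CPM against 2.84 to 13.8 CPM (median 7.03, log2 fold change 2.03 ± 0.22 SE, adjusted p = 1.12e-13), and ADM (2.22), NDRG1 (2.15) and BNIP3L (2.01) rose. CA12 fell by 3.16, PDK1 by 1.07 and HIF1A by 0.73.

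Inflammatory genes have to be read within each set of wells, since the controls themselves differed there. Over all wells 12 of 28 NF-kB cytokine and acute phase genes rose and 6 fell, against 29% and 27.1% of protein-coding genes. Within the sets the median was -0.074 in the low-numbered and 1.42 in the high-numbered wells. The difference between the sets was called for 7 of the 28, against 0.7% of all genes tested. CXCL8 (interleukin 8), a neutrophil attractant, was at 653, 700.2, 294 and 532 CPM against 18.6 to 97.3 CPM (median 68.4, log2 fold change 3.03 ± 0.22 SE, adjusted p = 7.28e-22), with 3.0 and 3.88 in the 2 sets. IL1A rose by 1.5, with 1.47 and 1.72, and LCN2, an iron-binding acute phase protein, was at 114, 102, 55.3 and 79.5 CPM against 0 to 11.1 CPM (median 3.90). IL24 was at 63.1, 52.8, 16.9 and 33.3 CPM against 0 to 9.63 CPM (median 0.210). The inhibitor NFKBIA fell (log2 fold change -1.94 ± 0.24 SE, adjusted p = 2.40e-11), with -2.21 and -1.31 in the sets, and RELB rose by 2.25.

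SAA1 and SOD2 were not called over all wells (-1.66 at adjusted p = 0.0535 and -0.083 at adjusted p = 0.937). Within the sets their log2 fold changes were -1.81 and -0.036 for SAA1 and -0.21 and 1.39 for SOD2. SAA2 was called lower over all wells (log2 fold change -3.03 ± 0.95 SE, adjusted p = 0.00645), with -3.06 and -0.67 in the sets and 0.24 in all arsenic wells against controls 10 to 16. S100A8 was at 15.7, 13.6, 6.76 and 1.99 CPM against 8.19 to 1078 CPM (median 726), with log2 fold changes of -5.86 and -2.07 in the sets, and S100A9 with -4.95 and -2.05; both calls were lost against controls 10 to 16 alone.

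Of 34 interferon-stimulated genes 8 rose and 8 fell, against 29% higher and 27.1% lower among protein-coding genes. IFITM3 was at 126, 146, 95 and 86.4 CPM against 331 to 1331 CPM (median 1142, log2 fold change -2.91 ± 0.49 SE, adjusted p = 3.63e-07), with -3.17 and -2.02 in the sets and a called difference of 1.04 at adjusted p = 0.00109; IFITM2 behaved alike (-3.54 and -2.31), and the 2 are near-identical in sequence. IFI44L fell by 2.94 and OAS3 by 1.79, while IRF7 rose by 2.06 and IFIT2 by 1.94.

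Markers of the basal epithelial state fell. Of 12 basal genes 8 fell and 1 rose, against 27.1% and 29% of protein-coding genes. KRT5, the keratin of basal cells, was at 95.5, 101, 145 and 123 CPM against 1047 to 1511 CPM (median 1126, log2 fold change -3.36 ± 0.15 SE, adjusted p = 1.18e-36). KRT14, its partner, fell by 2.03, CDH3 (P-cadherin) by 2.10 and the integrins ITGA6 and ITGB4 by 2.0 and 1.06. TP63, the basal lineage factor, was at 0, 0, 0.650 and 1.36 CPM against 7.30 to 26.1 CPM (median 12.8). KRT17 went the other way, at 536, 673, 961 and 996 CPM against 369 to 554 CPM (median 443, log2 fold change 0.84 ± 0.17 SE, adjusted p = 2.43e-05).

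Luminal and simple epithelial genes also fell in 5 of 8 cases, KRT7 by 0.85 and KRT8 by 0.62, and GATA3 was not called (0.17 at adjusted p = 0.419). ESR1, the estrogen receptor that MCF10A cells hardly make, was at 1.82, 6.94, 3.64 and 6.86 CPM against 0 to 1.53 CPM (median 0). Of 20 squamous genes tested of 29, 4 rose and 4 fell, against 29% and 27.1% of protein-coding genes. Among them CSTA, cystatin A, was higher by 2.13 and TGM1, transglutaminase of the cornified envelope, lower by 2.19 on the log2 scale.

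Matrix genes divided by kind. Of 13 laminins and other matrix proteins, 9 rose and 3 fell. LAMB3 of laminin-332 was at 1795, 1727, 1866 and 1933 CPM against 366 to 637 CPM (median 572, log2 fold change 1.77 ± 0.15 SE, adjusted p = 1.04e-18). FN1 rose by 1.43 and CCN2 by 2.36, and SPARC fell by 1.82. Of 9 collagens 3 rose and 3 fell, and of 18 genes of the epithelial to mesenchymal transition 7 rose and 7 fell. Among protein-coding genes 29% rose and 27.1% fell. SNAI1 rose by 3.04 and ZEB1 by 1.22, VIM fell by 0.37, CDH1 (E-cadherin) by 1.20, and CDH2 (N-cadherin) was not called (0.16 at adjusted p = 0.547).

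Smaller lists gave mixed counts, to be read beside 29% higher and 27.1% lower among protein-coding genes. Of 7 aryl hydrocarbon receptor targets 3 rose and 2 fell, CYP1A1 being at 9.43, 10.5, 21.5 and 25.7 CPM against 0 to 9.19 CPM (median 0.643) and CYP1B1 falling by 1.94. Of 18 replication-dependent histones 5 rose and 3 fell, H4C3 falling by 2.69 and H1-2 rising by 2.47; histone copies share reads. Of 5 osmotic and solute transporters 3 rose, and 1 without arsenic replicate 4.

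Classes of genes beyond the pathways also shifted. Of 491 tested zinc finger genes of the C2H2 kind, many of which encode transcriptional repressors, 201 rose and 54 fell. Among protein-coding genes 29% rose and 27.1% fell. The zinc finger genes had a median of 0.59, and medians of 0.50 and 0.65 in the 2 sets. Long intergenic RNAs took 0.73 to 1.13% of counts in the arsenic libraries, 0.37 to 0.42% in controls 1 to 8 and 0.26 to 0.33% in controls 10 to 16. Antisense RNAs took 0.24 to 0.28%, 0.19 to 0.20% and 0.17 to 0.20%. Neither range under arsenic overlapped the controls.

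Long genes and short genes moved apart. With protein-coding genes in 5 equal groups by the length of the gene from start to end, the shortest group had 644 higher and 932 lower calls and a median log2 fold change of -0.20, and the longest group had 1037 higher and 569 lower and a median of 0.24. The medians were -0.27 and 0.17 in the low-numbered wells and 0.00 and 0.32 in the high-numbered wells. Of 17 S100 genes, which are short, 10 fell and 1 rose, against 27.1% lower and 29% higher among protein-coding genes. In the high-numbered wells 7 fell and 2 rose, and the difference between the sets was called for 3 of the 17. The part of gene length in the list results was not tested.

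Most genes called against water also differed between 2.5 and 25 µM. The direct comparison of the 2 doses called 7567 genes (31.1%), 3947 higher and 3620 lower at 25 µM. Of these, 7034 were among the 10051 called against water, 7033 in the same direction; the 2 comparisons share the arsenic 25 µM libraries. Of 31 ATF4 targets 24 were higher at 25 than at 2.5 µM, of 30 heat shock genes 21, of 26 autophagy and lysosome genes 20, and of 31 mitotic genes 29 were lower.

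At 0.025, 0.25, 2.5 and 25 µM HMOX1 averaged 3.62 ± 0.837, 6.57 ± 2.81, 25.7 ± 13.6 and 1755 ± 152 CPM, and 4.60 ± 3.0 CPM in water (mean ± SD over 4 libraries per dose and 15 controls), and FTL 1357 ± 161, 1642 ± 159, 4236 ± 1193 and 18810 ± 1580 CPM and 1326 ± 241 CPM. HSPA1A averaged 24.2 ± 4.43, 27.5 ± 6.90, 38.4 ± 23.4 and 510 ± 72.4 CPM against 21.2 ± 8.75 CPM, and HSPA6 1.03 ± 0.638, 1.58 ± 1.46, 1.72 ± 1.90 and 649.8 ± 96.9 CPM against 0.651 ± 0.914 CPM. Between 2.5 and 25 µM HMOX1 had a log2 difference of 6.22 ± 0.34 SE, adjusted p = 1.13e-29. HSPA6 had a log2 difference of 9.09 ± 0.42 SE, adjusted p = 9.77e-40.

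NRF2 targets reached different shares of their 25 µM level at 2.5 µM. NQO1 averaged 665 ± 69.1, 795 ± 82.4, 1235 ± 288 and 1475 ± 144 CPM over the 4 doses, and the step from 2.5 to 25 µM was not called (log2 difference of 0.26 ± 0.11 SE, adjusted p = 0.0581). SLC7A11 averaged 37.3 ± 22, 42.1 ± 17.1, 121 ± 65 and 497 ± 85.2 CPM, with a log2 difference of 2.05 ± 0.31 SE, adjusted p = 5.62e-08. Of 34 NRF2 targets 18 were higher and 6 lower at 25 than at 2.5 µM. DDIT3 averaged 6.25 ± 3.23, 4.96 ± 2.37, 6.89 ± 1.54 and 319 ± 14.3 CPM over the same doses and 5.88 ± 2.37 CPM in water. MYC averaged 382 ± 20.6, 379 ± 17.9, 324 ± 41.5 and 29.4 ± 7.76 CPM and 376 ± 26.3 CPM in water. KRT5 averaged 1152 ± 106, 1063 ± 133, 969 ± 187 and 116 ± 22.5 CPM and 1189 ± 142 CPM in water. At 2.5 µM the means of these 3 genes were nearer to water than to 25 µM. KRT14 averaged 85.5 ± 17.7, 62.9 ± 26.9, 41.4 ± 6.88 and 24.9 ± 10.4 CPM against 105 ± 23.4 CPM, and its step from 2.5 to 25 µM was not called (log2 difference of -0.72 ± 0.33 SE, adjusted p = 0.0917).

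**Figure D4:**
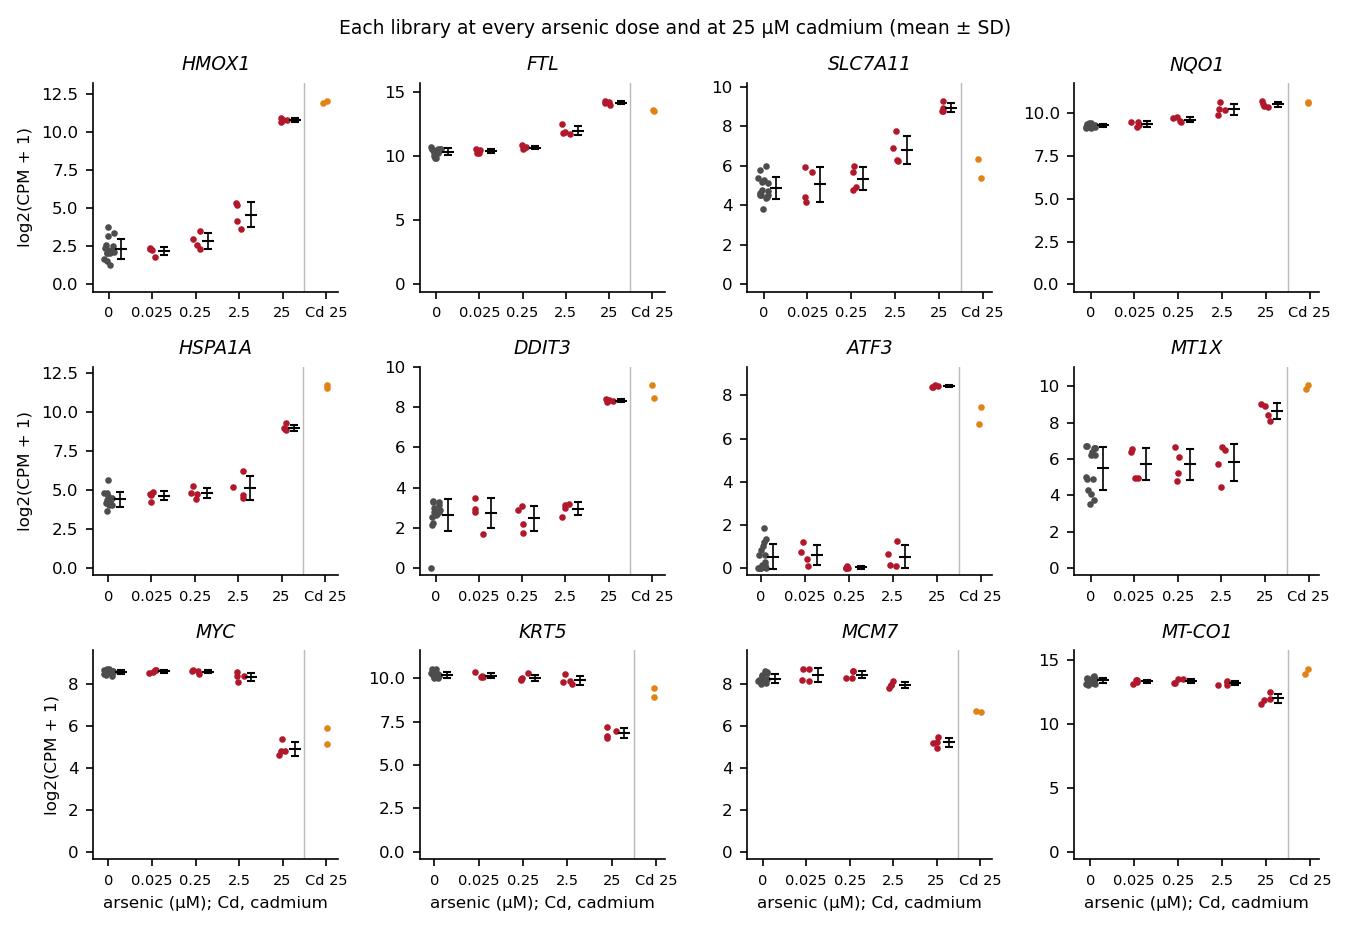
Expression of 12 genes as log2(CPM + 1) in each library in water (0), at 4 arsenic doses and at 25 µM cadmium (Cd), with mean ± SD beside groups of more than 2 libraries. FTL, SLC7A11 and NQO1 stand above water at 2.5 µM, whereas ATF3 and DDIT3 are near water at 2.5 µM and far above it at 25 µM.

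Cadmium at the same dose gave a different balance of stress genes, in 2 libraries of only 1434176 and 1454576 counts with low replicate numbers. In them 52.95 to 59.28% of counts went to the 50 most counted genes, against 23.1 to 25.9% in the arsenic libraries. The arsenic minus cadmium comparison called 2079 genes (8.56%), 1030 higher and 1049 lower in arsenic, around a median of 0.81 over all genes. Heat shock genes were higher in cadmium, 17 of 30 called against 1, and so were 14 of 24 unfolded protein response genes against 2. ATF4 targets were higher in arsenic, 16 of 31 against 1, as were 11 of 26 p53 targets against 1.

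DNAJB1 was at 4879 and 6231 CPM in the cadmium libraries (log2 difference of -3.04 ± 0.22 SE, adjusted p = 7.25e-21) and HSPA5 at 8983 and 12150 CPM (log2 difference of -2.30 ± 0.16 SE, adjusted p = 1.00e-21). SLC7A11 was at 40.6 and 80.4 CPM (log2 difference of 3.02 ± 0.65 SE, adjusted p = 0.000426), and CHAC1 at 62.8 and 63 CPM (log2 difference of 1.88 ± 0.37 SE, adjusted p = 7.55e-05). HMOX1 was higher in cadmium on the CPM scale, at 3794 and 4127 CPM (log2 difference of -1.17 ± 0.31 SE, adjusted p = 0.00604). Ribosomal protein genes took overlapping shares of counts, 6.456 to 6.855% in the cadmium and 6.203 to 7.711% in the arsenic libraries. Yet 56 of the 78 were called higher in cadmium and 0 higher in arsenic. The part of the scaling in the HMOX1 difference and in the list counts between the metals was not tested. All 13 mitochondrial mRNAs were higher in cadmium than in arsenic, MT-CO1 at 15840 and 20720 CPM. Between the metals GCLM and NQO1 were not called (log2 difference of 0.29 ± 0.26 SE, adjusted p = 0.783, and log2 difference of -0.11 ± 0.14 SE, adjusted p = 0.972), and their 2 cadmium values were 364 and 552 CPM and 1563 and 1631 CPM.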

How the data were processed

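PlexWell libraries were made directly from cell lysates, per the labels' protocols, and the authors deposited 1 table of counts per gene symbol and library. STAR, featureCounts and GRCh38 are named in the submitters' processing notes; the sources used here give no versions, annotation or strand setting. All 93 libraries of the plate barcode were fitted with edgeR 4.0.16 (R 4.3.3): TMM scaling, filterByExpr by group (minimum count 10, minimum total 15), quasi-likelihood F-test with Benjamini-Hochberg adjustment over 24295 of 34718 listed genes, called at an adjusted p under 0.05. Arsenic at 25 µM was contrasted with the 15 water controls of its plate barcode, with arsenic 2.5 µM and with cadmium 25 µM, within low and high replicate numbers, and as the difference between these. Each set was fitted and scaled on its own, and the difference in 1 fit over all 93 libraries, so it is not exactly the subtraction of the set values. SE is the log2 fold change divided by the square root of F. A median over a list is a description without a test. Fitted fold changes are not given where a group had 3 counts or fewer. Alternatives were RLE and upper-quartile scaling, DESeq2 1.42.0, no filter, a filter of 1 CPM in 4 libraries, the 2 groups alone, each set of controls alone, the set as a term, libraries thinned to 1932159 counts, a replicate block over the libraries numbered 1 to 4, each arsenic library left out, and, added after the data were seen, protein-coding genes only. The fit was also run on simulated data with few genes changed, as many higher as lower. Such data cannot test the scaling where a large share of genes is called.

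Gene lists and comparisons were chosen with earlier results of these data known. Genes named by rule were the 12 highest and 12 lowest among called genes whose average log2 CPM reached 4, with all arsenic libraries outside the control range and the same call in both sets; the 3 largest called changes of each list above an average log2 CPM of 3; and 43 fixed genes. Other list members are named to show the range and were chosen after their values were seen. A few genes that the rule names are not reported here. Gene types came from GENCODE v29 by symbol (32110 of 34718 matched, 92.5%), promoters from RefSeq. The plate's 8 water controls numbered 9 to 16 and 1 cadmium library that carry another plate barcode were not analysed here. Total counts bound the precision, and small counts carry counting error beside the spread between wells.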

Additional observations from a re-analysis of the deposited data

Results flagged for a closer look

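In 11 of 158 named genes 1 of the 4 arsenic libraries stood apart from the other 3 by Dixon's test, which by chance flags about 1 in 20 groups. Replicate 3 was high for the epithelial gene FGFBP1 (10.4 CPM), for SYT8 (20.4 CPM) and for the NRF2 genes OSGIN1 (122.4 CPM) and MAFG (129.8 CPM), and low for the aquaglyceroporin AQP3 (51.5 CPM). Replicate 4 was low for TYMS (4.87 CPM), the repair enzyme APEX1 (72.4 CPM) and ATP5F1D, a subunit of ATP synthase (65.7 CPM). Replicate 2 was high for MVK, mevalonate kinase (36.4 CPM), and replicate 1 for SRXN1 (45.7 CPM) and, with all its counts, for TNNI2 (0.322 CPM).

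In 8 named genes the arsenic effect differed between the high-numbered and the low-numbered wells by the test of the difference. It was more positive in the high-numbered wells for MT1X (1.49 on the log2 scale), SAA2 (2.29), IFITM2 (1.13), IFITM3 (1.04), FOS (1.60) and AKR1B1, an aldose reductase (0.75). It was more negative there for HSPH1 (-0.62) and RRM2 (-0.73). The water controls of the low and high numbers averaged 90.6 and 20.9 CPM for MT1X, 267 and 19.2 CPM for SAA2, 530.4 and 184 CPM for IFITM2, 1227 and 391 CPM for IFITM3 and 52.7 and 12.5 CPM for FOS. The part of the controls' own difference in these 8 results was not tested.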

How the results depend on the processing

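The number of genes called at 25 µM lay between 7283 (controls 10 to 16 only) and 10276 (number set as a term) over 16 alternatives, against 10051. DESeq2 called 8149 and the libraries thinned to equal totals 8192. A replicate block kept only the libraries numbered 1 to 4, and so no control of the high numbers, and 8999 genes were called. Same-numbered arsenic and control libraries had correlations of 0.122, 0.104, -0.114 and -0.138 in their deviations over 10623 genes, so the numbers did not pair single libraries. Arsenic replicates 1 and 2 correlated positively with controls 1 to 8 (0.048 to 0.148) and negatively with controls 10 to 16, and replicates 3 and 4 the reverse. The fit with the block, against controls 1 to 4 alone, ended the call of 3 named genes and turned MT2A, not called, to -0.10 from 0.47. The part of the block and that of the controls left out cannot be told apart. Leaving out 1 arsenic library gave 8894 to 9302 calls, and 91 to 116 genes with a difference between the sets against 170.

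Of 154 called named genes, 138 kept direction and call in every alternative run. Against controls 10 to 16 only, SAA2 turned to 0.24 from -3.03 and IL6, not called, to 6.80 from -0.86, and calls were lost for ABCC1, ASNS, CA9, DCN, GALNT15, HK2, MMP2, MUC1, S100A8, S100A9 and SLC38A2. Other lost calls were AKR1B1, HMGCS1, IFIT1 and NFAT5. MT2A passed the threshold in 6 alternatives, with 1.26 against controls 10 to 16 only. Of 88 counts of list members, 32 moved by over 1.5 times in some alternative. The cause was not tested. In controls 10 to 16, totals from 1932159 counts limit what can be called among low genes.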

Other observations

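Solute carriers, the membrane transporters of small molecules, moved in both directions at about the background shares. Of 275 tested, 83 rose and 71 fell under arsenic, against 29% and 27.1% of all protein-coding genes. All arsenic wells lay outside the control range in 78 of them, and in 3792 of the 14656 protein-coding genes tested. Of 20 zinc transporters 7 rose and 6 fell. Among 26 keratins 3 rose and 10 fell, and 11 lay outside the control range. Of 40 DNAJ co-chaperones, the wider family of HSP40 proteins, 19 rose and 7 fell, with a median log2 fold change of 0.35. Of 20 dual specificity phosphatases, which switch off kinases of the MAPK family, 8 rose and 4 fell. Of 34 kinesins, motor proteins of microtubules, 13 rose and 11 fell. Of 29 interferon regulatory and induced genes 6 rose and 11 fell, with medians of -0.90 in the low-numbered and 0.14 in the high-numbered wells. Of 374 ribosomal protein pseudogenes 10 rose and 17 fell, and their reads may belong to the parent genes.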
